A study of Mus musculus with 4 samples.

Results

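The MHC class II presentation genes are 9 genes of 18194 with a probe set of their own in these arrays. They were H2-Aa, H2-Ab1, H2-Ea and H2-Eb1, which encode the chains of the class II molecules, Cd74, Ciita, H2-DMa, H2-Oa and H2-Ob. Every probe set annotated to these symbols was taken, 19 that name 1 gene and 1 more that H2-Ob shares with Gm20506. The genes were chosen because earlier results of these same arrays showed several of them lower in the double knockout, so their ratios are a description and carry no test.

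Class II molecules are paired alpha and beta chains that carry peptides from endosomes to the surface of antigen-presenting cells, where CD4 T cells read them. The chains are assembled on the invariant chain, CD74, whose last fragment is exchanged for peptide with the help of H2-DM and under the restraint of H2-O. Dendritic cells, macrophages, B cells and the epithelium of the thymus make them, and in the lung alveolar macrophages and type II cells can. Their genes share an upstream X box and Y box, bound by the RFX and NF-Y complexes, on which the coactivator CIITA acts.

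RNA came from lungs of E18.5 mouse embryos, of the genotype labelled Myf5-/-:MyoD-/-, recorded as BALB/c Myf5:Myod null, and of wild type, recorded as BALB/c. Myf5 and Myod1 drive cells into the skeletal muscle lineage, and the series title gives the role of that muscle in lung development as its subject. The labels name no driver that would limit the loss to a cell type. Whether 1 embryo or a pool was used is not given, nor is the sex of the embryos. There were 2 Affymetrix designs, MOE430A and MOE430B, with 1 array per genotype on each, 4 arrays in all, and each labelling began with 6 µg of RNA.

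With 1 array per genotype on each design there was no replicate, no test between genotypes could be made, and no p-value is given. The number of arrays limits the precision of every value. Signals are MAS5 signals on a linear scale, and those of the double knockout were divided by 1.004 on MOE430A and 1.008 on MOE430B to bring the median ratio to 1. A probe set passed when its higher signal reached the median of its design, 789.2 or 858.2. Signals under the 25th percentile, 284.5 or 279.1, were set to that floor in ratios, which then are lower bounds, written as at least N-fold. From the 100 probe sets that both designs carry, the SD of a single log2 ratio was put at 0.24, after removing a mean offset of -0.22 (MOE430B minus MOE430A). This SD compares designs, not embryos, and is 1 value for bright and dim signals alike. The log2 ratios themselves, with any genotype differences in them, had an SD of 0.65 over the dimmest 1915 genes of MOE430A. Over the dimmest 1682 of MOE430B it was 1.21.

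Facts of the whole series bear on these values. Myf5 read 8.94 in the double knockout and 110.5 in wild type, both under the floor. The Myod1 probe set of MOE430A went against its label, at 1081 in the array labelled double knockout and 85.0 in the array labelled wild type. On MOE430B, Myod1 lay the same way below the filter, at 607.2 in the array labelled double knockout and 337.2 in the array labelled wild type. It is unknown here whether the probes fall within the sequence that the null alleles lack, and if they do not, they say nothing about the genotype. Each direction below rests on the labels. Xist, the RNA of the inactive X chromosome, read 2749 in the double knockout and 7600 in wild type, and its part in the class II values was not tested. As a marker of the labelled tissue, Sftpc, a surfactant protein of type II cells, read 113337 in the double knockout and 78525 in wild type.

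The promoters of 4 members show the shared class II control element and are printed for that reason. RefSeq promoters (GRCm38.p6, the C57BL/6J reference, 250 bases before the start to 50 after it) were found for 5 of the 9 members, H2-Aa, H2-Eb1, H2-Oa, H2-Ob and H2-DMa. The letters GCAAC, the core of the X box, and TGATTGG, which holds the Y box, are in capitals, and the lines run 5′ to 3′ on the strand of the gene.
H2-Aa, chr17:34287847-34287934, minus strand: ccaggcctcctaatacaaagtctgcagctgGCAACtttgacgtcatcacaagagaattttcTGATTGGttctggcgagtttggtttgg
H2-Eb1, chr17:34305746-34305832, plus strand: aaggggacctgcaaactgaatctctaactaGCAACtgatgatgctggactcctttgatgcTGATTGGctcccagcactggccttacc
H2-Oa, chr17:34092273-34092360, plus strand: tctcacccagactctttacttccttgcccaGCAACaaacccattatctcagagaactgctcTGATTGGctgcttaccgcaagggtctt
H2-Ob, chr17:34238788-34238872, plus strand: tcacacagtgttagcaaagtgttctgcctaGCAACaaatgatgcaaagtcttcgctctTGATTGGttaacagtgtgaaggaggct

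The capitals sit at nearly the same spacing in all 4 promoters. There were 26 bases between them in H2-Aa and H2-Oa, 25 in H2-Eb1 and 23 in H2-Ob. The Y box began 50 bases before the start in H2-Aa (position -50), at -61 in H2-Eb1, at -45 in H2-Oa and at -59 in H2-Ob. The X core followed by the Y box after 20 to 30 bases, on either strand, was in 34 of all 32851 RefSeq promoters, 0.103%. The Y box letters alone were in 7.82% and the X core letters alone in 35.2%. The letters and the gap were chosen after the 4 promoters had been read, so that these shares only say how rare the pair is. H2-DMa, with 2 annotated starts, held the X core on the opposite strand at 1 start and no Y box, which says only that the letters are not in that window.

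**Figure D1:**
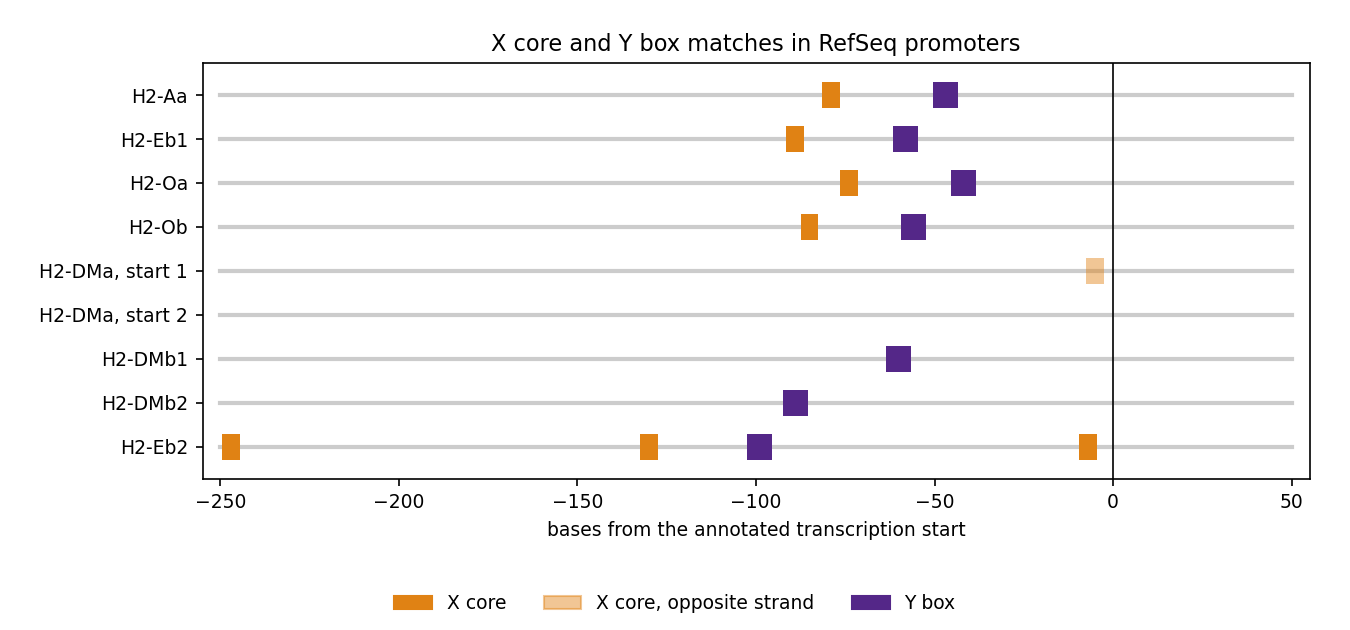
Positions of the X core (orange, paler on the opposite strand) and of the Y box (purple) in the RefSeq promoters of class II genes, in bases from the annotated transcription start (0, vertical line), 1 row per promoter. In H2-Aa, H2-Eb1, H2-Oa, H2-Ob and H2-Eb2 an X core stands 23 to 26 bases before a Y box, while the H2-DM promoters hold no such pair.

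The classical class II chains and the invariant chain were lower in the double knockout lungs on MOE430A. H2-Ea was 6.15-fold lower, H2-Ab1 3.71-fold, H2-Aa 3.51-fold, Cd74 2.92-fold and H2-Eb1 2.03-fold, each by its brightest probe set. The peptide exchange chain H2-DMa was close to equal in both genotypes, and Ciita, H2-Oa and H2-Ob did not reach the filter on either design. Of the 9 members, 5 were thus at least 2-fold lower on MOE430A, 1 was measured and was not, and 3 were not measured above the filter. Of all 7658 genes that passed on MOE430A, 1.78% were at least 2-fold lower. Because the members were picked from this contrast, nothing is read from the count. In whole lung RNA, fewer cells that make a transcript and less transcript per cell cannot be told apart.

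The alpha chain of the A molecule, H2-Aa, was read by 4 probe sets. The brightest one of MOE430A (1435290_x_at) had a signal of 1173 in the double knockout and 4114 in wild type, a log2 ratio of -1.81. The other one (1452431_s_at) had 339.0 in the double knockout and 1386 in wild type, with a log2 ratio of -2.03. The 2 MOE430A probe sets thus differed from each other by about the SD of 1 ratio and both put H2-Aa lower in the double knockout.

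On MOE430B, H2-Aa (1438858_x_at) had 249.5 in the double knockout, under the floor, and 3326 in wild type, and was at least 11.9-fold lower. It passed through its wild type signal alone. Of the 6728 genes that passed on that design, 6.24% were at least 2-fold lower and 7.09% at least 2-fold higher, and nothing is read from this, since H2-Aa was chosen from the contrast. Its second MOE430B probe set read 7.31 in the double knockout and 22.9 in wild type, both under the floor, and gives no ratio. The designs differ in how far H2-Aa was lower, not in its direction.

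The beta chain of the A molecule, H2-Ab1, had 3 probe sets, all on MOE430A, and each put it lower in the double knockout. They read 498.6, 522.2 and 63.8 in the double knockout, against 1849, 1497 and 890.2 in wild type, in the order 1450648_s_at, 1451721_a_at and 1425477_x_at. The log2 ratios of the first 2 were -1.89 and -1.52, and by the third, under the floor in the double knockout, H2-Ab1 was at least 3.13-fold lower. Signals of all 3 were thus higher in wild type.

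The alpha chain of the E molecule, H2-Ea, had the largest difference of the members on MOE430A. Its probe set 1422892_s_at read 365.1 in the double knockout and 2247 in wild type, a log2 ratio of -2.62. The other probe sets were dim and did not show it. They read 333.5 in the double knockout and 218.5 in wild type (1422891_at), and 77.1 in the double knockout and 87.3 in wild type (1426202_at), none of them passing. The result on H2-Ea thus rests on 1 of 3 probe sets.

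H2-Ea also differs between mouse strains, as background to this value. The C57BL/6 strain carries a deletion in its promoter and makes no E molecule, and RefSeq lists the gene of that reference as a transcribed pseudogene, while BALB/c has a working copy. The labels give BALB/c for both genotypes. No value here reads the strain at this locus, and its part in the H2-Ea ratio was not tested.

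The beta chain of the E molecule, H2-Eb1, was read by 1 probe set, with 1382 in the double knockout and 2808 in wild type. Its log2 ratio of -1.02 was the smallest of the 5 and close to the 2-fold line. That of its partner H2-Ea was further from 0, a difference that was not tested. H2-Eb1 was the one lowered member whose probe set name carries none of the suffixes for shared sequence.

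The invariant chain Cd74, which fills the peptide groove of new class II molecules and guides them to endosomes, had a signal of 2099 in the double knockout and 6137 in wild type. Its log2 ratio was -1.55. Among the brightest 1915 genes on MOE430A, to which Cd74 belongs, 0.522% were at least 2-fold lower, against 4.91% among the dimmest 1915, where H2-Ab1 and H2-Ea lie. H2-Aa and H2-Eb1 were among the 1914 genes next in brightness to the first group, with 0.470%. Genes at least 2-fold lower were thus rarer among bright genes than among dim ones. As the members were picked from this contrast, nothing is read from their place in these groups.

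**Figure D2:**
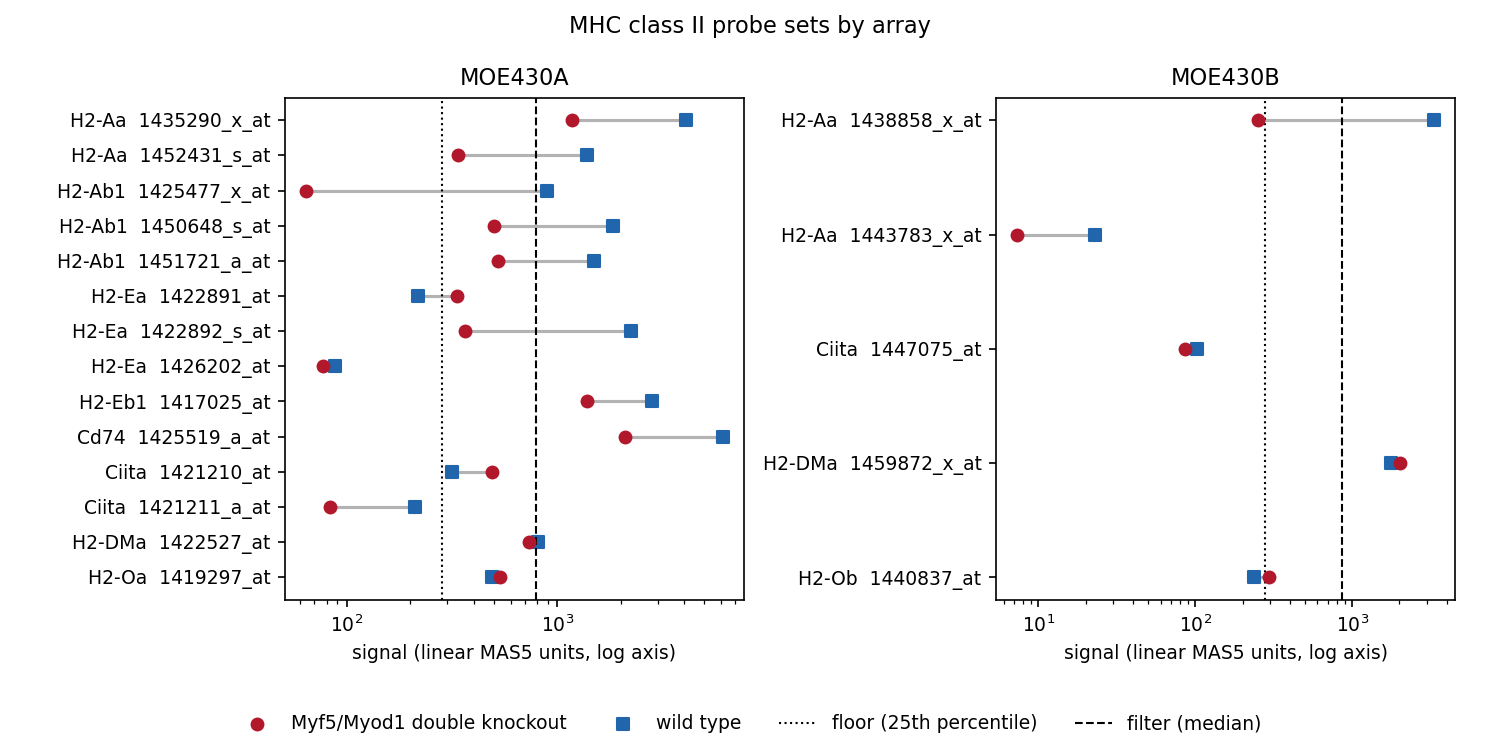
Signal of every probe set that names 1 member, in the double knockout (red circles) and in wild type (blue squares), on MOE430A (left) and MOE430B (right), on a log axis in linear MAS5 units, with the floor (dotted) and the filter (dashed). The probe sets of H2-Aa, H2-Ab1, H2-Eb1 and Cd74 that pass the filter have the red circle to the left of the blue square, while those of H2-DMa, H2-Oa and H2-Ob lie close together.

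By probe set, 9 of the 14 single-gene ones on MOE430A passed, and 8 of these were at least 2-fold lower, where 2.03% of 12203 passing probe sets were. On MOE430B, 2 of 5 passed and 1 was at least 2-fold lower, where 7.97% of 12891 were. No passing probe set of a member was at least 2-fold higher on either design. On MOE430A, H2-Ab1, H2-Ea, H2-DMa and the dimmer probe set of H2-Aa passed through their wild type signal alone, and so did H2-Aa on MOE430B. A lower signal in the double knockout then follows in part from the filter. The same holds for any other gene named here that passed with a double knockout signal below the filter value. A gene that passed with only its wild type signal below the filter value is likewise higher in part by the filter. On MOE430A, H2-Aa by its brightest probe set, H2-Eb1 and Cd74 passed in both genotypes.

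Probe sequence limits the reading of single chains. Of the 9 lowered probe sets over both designs, 8 end in _x_at, _s_at or _a_at, which mark probes that may match another gene or several transcripts of 1 gene. Class II alpha chains resemble one another, as do the beta chains, so that some signal of one may come from another. Without such probe sets, H2-Eb1 and H2-DMa are the members left on MOE430A and none is left on MOE430B.

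Of the accessory members, H2-DMa was near equality and H2-Oa and H2-Ob were too dim to measure. H2-DMa, the alpha chain of the peptide exchange factor, had 737.0 in the double knockout and 809.7 in wild type on MOE430A, a log2 ratio of -0.14. On MOE430B it had 2025 in the double knockout and 1755 in wild type, a log2 ratio of 0.21. Both ratios were smaller than the SD of 1 ratio, with opposite signs.

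H2-Oa, the alpha chain of the inhibitor of peptide exchange, had 532.5 in the double knockout and 491.4 in wild type and did not pass. H2-Ob, its beta chain, had 292.8 in the double knockout and 237.0 in wild type on MOE430B, also below the filter. The probe set shared by H2-Ob and Gm20506 read 435.3 in the double knockout and 250.3 in wild type. At these signals, a difference in H2-O was not detectable. The promoters of H2-Oa and H2-Ob, printed above, hold the same pair of letters as those of H2-Aa and H2-Eb1.

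Ciita, the coactivator on which class II transcription depends, was not measured above the filter by any of its 3 probe sets. They read 490.6 in the double knockout and 315.7 in wild type (1421210_at), 83.0 in the double knockout and 210.0 in wild type (1421211_a_at), and 86.1 in the double knockout and 101.7 in wild type (1447075_at on MOE430B). The first pair lies the opposite way to the class II chains and the other pairs are under the floor. A difference in Ciita was not detectable at these signals.

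**Figure D3:**
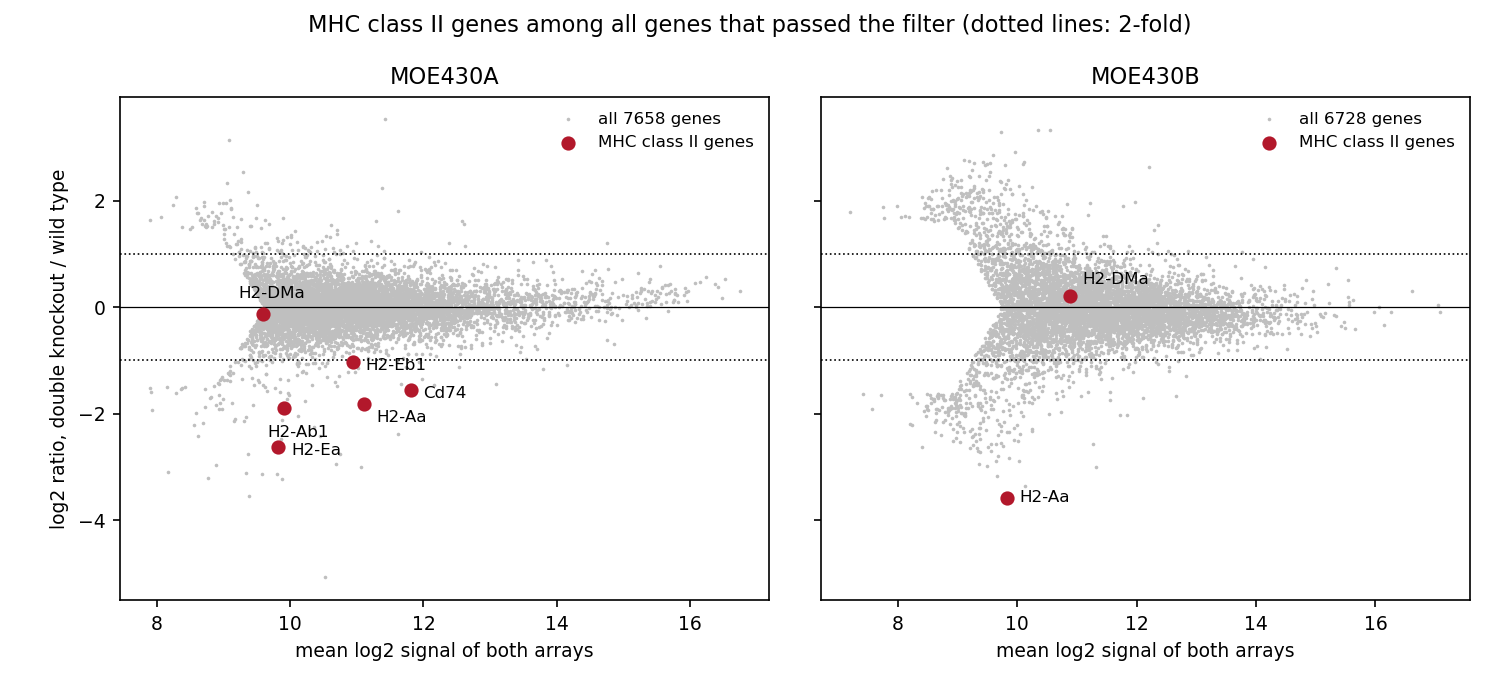
Log2 ratio of double knockout over wild type against the mean log2 signal of both arrays, for all genes that passed (grey, 7658 on MOE430A and 6728 on MOE430B) and for the class II members that passed (red, labelled). On MOE430A, 5 members lie at or below the lower 2-fold line, from -1.02 for H2-Eb1 to -2.62 for H2-Ea, with H2-DMa near 0.

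Of the other class II chains, 1 was lower and 1 was not. H2-DMb2, a beta chain of the exchange factor, had 516.1 in the double knockout and 1236 in wild type on MOE430A, 2.40-fold lower. On MOE430B its probe sets had 412.7 and 300.3 in the double knockout, against 2099 and 970.0 in wild type, 5.09-fold and 3.23-fold lower. All 3 of these probe sets passed through wild type alone, so that the lower signals follow in part from the filter. The 2 probe sets shared with H2-DMb1 read at most 170.3 in either genotype, under the floor. H2-Eb2, a further beta chain gene, had 4048 in the double knockout and 4115 in wild type on MOE430B, a log2 ratio of -0.02, and its promoter also holds the pair, 25 bases apart.

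Of the regulators that act at the X and Y boxes, 1 was past 2-fold. Of 10 genes of this list, 7 passed on MOE430A, 1 was at least 2-fold lower and 0 at least 2-fold higher. Of all genes, 1.78% were lower and 1.76% higher. The list had a median log2 ratio of 0.08 against 0.01 over all genes. Rfx5, the DNA-binding subunit of the RFX complex, had 1244 in the double knockout and 1273 in wild type. Rfxank, its ankyrin subunit, had a log2 ratio of 0.11, and 0.69 by its other probe set. Nfyc, a subunit of NF-Y, had 0.07 and the acetyltransferase Kat2b 0.13. Rfxap, the remaining RFX subunit, had 834.2 in the double knockout and 585.7 in wild type, a log2 ratio of 0.51, and 0.15 on MOE430B. The gene past 2-fold, named like Rfxap after its values were seen, was Nfyb, another NF-Y subunit, with 425.7 in the double knockout and 1164 in wild type, 2.73-fold lower, and 2.35-fold lower by its other probe set.

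The interferon gamma route, which induces Ciita in many cells, showed 0 of 7 measured genes past 2-fold in either direction, with a median log2 ratio of -0.01. Ifngr1, a receptor chain, had 2258 in the double knockout and 1545 in wild type, a log2 ratio of 0.55. Irf2, an interferon regulatory factor, had -0.64, and the kinase Jak2 -0.50, with -1.05 by its other probe set. The receptor chain Ifngr2 had 0.11.

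Endosomal proteases and their partners, which prepare peptides and degrade the invariant chain, showed 0 of 10 measured genes past 2-fold on MOE430A and a median log2 ratio of -0.06. Ctsl, cathepsin L, which degrades the invariant chain in the cortical epithelium of the thymus, was the lowest, with 8317 in the double knockout and 14906 in wild type, a log2 ratio of -0.84. Ctsb, cathepsin B, had -0.38, but its other probe sets on MOE430A reached 0.51. Ctsh, cathepsin H, had 0.21 and Lamp1, a lysosomal membrane protein, 0.27.

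Class I presentation, by which all nucleated cells show peptides to CD8 T cells, was lower in part. Of 15 measured genes on MOE430A, 2 were at least 2-fold lower and 0 at least 2-fold higher, at a median log2 ratio of -0.46. Of all genes, 1.78% were lower and 1.76% higher by that rule. Psmb8, an inducible proteasome subunit, had 650.2 in the double knockout and 2198 in wild type, 3.38-fold lower. Psmb9, a second such subunit named after its values were seen, had 368.8 in the double knockout and 1317 in wild type, 3.57-fold lower. Tap2 of the peptide transporter had a log2 ratio of -0.86, while its partner Tap1 had 0.03. The proteasome activator Psme1 had 0.37. Without probe sets whose suffix marks a possible match to another gene or to several transcripts of 1 gene, the class I median was -0.03 over 9 genes. Psmb8 and Tap2 were among the genes dropped, both read by probe sets ending in _a_at.

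The cells that make class II molecules were then examined through their own markers. Dendritic cell markers were mostly too dim to measure, with 2 of 12 passing on MOE430A and 2 on MOE430B, all above 0 in log2 ratio by their brightest probe set. Irf8, a transcription factor of dendritic cells and monocytes, had 1534 in the double knockout and 1284 in wild type, and a log2 ratio of -0.01 by its other probe set. Siglech, a surface lectin of plasmacytoid cells, had 1704 in the double knockout and 1025 in wild type on MOE430B. Below the filter, Itgax, the CD11c integrin, had 556.1 in the double knockout and 541.8 in wild type, and Flt3, the receptor of dendritic precursors, had 378.7 in the double knockout and 566.0 in wild type. The summed signal of the 2 markers on MOE430A was 2446 in the double knockout and 1906 in wild type. Of the 2, Zbtb46 had 912.4 in the double knockout and 621.6 in wild type. It passed through the double knockout alone, so that its higher signal follows in part from the filter. The list median on MOE430A was 0.40, and 0 over 10 genes without a filter.

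Macrophage and monocyte markers differed little. Of 17 genes, 10 passed on MOE430A, 0 were past 2-fold in either direction and the median log2 ratio was -0.07. Csf1r, the receptor of the macrophage growth factor, had 4258 in the double knockout and 4050 in wild type, and Lyz2, a lysozyme of myeloid cells, had a log2 ratio of 0.27. Complement gene C1qb had -0.43, and 0.19 by its other probe set, and Cd68 had -0.21. The summed signal of the 10 markers was 29323 in the double knockout and 27350 in wild type. Of these sums Lyz2 alone gave 15961 and 13229, and 7 of the 10 markers were below 0 in log2 ratio, so the direction of the sum is not that of most markers. The summed signal of the 6 passing class II members was 6254 in the double knockout and 17965 in wild type.

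B cell markers were near or above equality. Of 14 genes, 4 passed on MOE430A and 2 on MOE430B, none past 2-fold, and the MOE430A median log2 ratio was 0.25. Cd22, an inhibitory receptor of B cells, had 1318 in the double knockout and 716.0 in wild type. Cd79a, the signalling chain of the B cell receptor, named after its values were seen, had 839.1 in the double knockout and 649.4 in wild type. Ighm, the heavy chain of IgM, had a log2 ratio of 0.14, with probe sets from -0.55 to 0.86, and Vpreb3, a gene of B cell precursors, had 0.08. The summed signal of the 4 markers was 5035 in the double knockout and 4013 in wild type. Of the 4, Vpreb3, Cd79a and Cd22 passed through their double knockout signal alone, so that their higher signals follow in part from the filter. Without a filter the MOE430A median was 0.12 over 13 genes.

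Genes of the thymic epithelium were divided. This epithelium, which carries class II molecules from fetal life, had 7 of 14 markers measured on MOE430A. Of these, 3 were at least 2-fold lower, where 1.78% of all genes were. All 3 passed through wild type alone, so that their lower signals follow in part from the filter. Prss16, a protease of the cortical epithelium, had 660.7 in the double knockout and 4466 in wild type, and Tbata 546.2 in the double knockout and 2250 in wild type. Ccl25, a thymic chemokine named after its values were seen, had 33.5 in the double knockout and 2443 in wild type, at least 8.59-fold lower, but its MOE430B probe set had 1890 in the double knockout and 1276 in wild type. Foxn1, which defines thymic epithelium, had 879.3 in the double knockout and 894.3 in wild type, and its MOE430B probe set had a log2 ratio of -0.46. Tnfrsf11a, the receptor RANK of the medullary epithelium, had 1318 in the double knockout and 1048 in wild type, and the keratin Krt5, named after its values were seen, had a log2 ratio of 0.47. Psmb11, the proteasome subunit of the thymic cortex, had 831.7 in the double knockout and 1548 in wild type on MOE430B.

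The median log2 ratio of the thymic epithelium list on MOE430A was -0.53, and it moved with the filter, to -2.77 at the 75th percentile and to -0.0018 without one. Its summed signal was 5086 in the double knockout and 12864 in wild type. No measured marker of the list had a signal of exactly 0, but neither did any of the 7658 genes that passed. Nothing is read from this about presence, and Ccl25 lay under the floor in the double knockout. The labels name lung as the tissue, and the part of thymic tissue in the class II values was not tested.

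Thymocyte and T cell genes, as a measure of the same kind, had 13 of 24 measured on MOE430A. Of these, 11 were at least 2-fold lower, where 1.78% of all genes were. All 11 passed through wild type alone, so that their lower signals follow in part from the filter. The median log2 ratio of the 13 genes was -2.94, and it was -1.64 with the floor at the median and -1.69 without a filter. Cd8b1, a chain of CD8, had 301.3 in the double knockout and 2636 in wild type, and Thy1, a surface protein of thymocytes, had 755.3 in the double knockout and 6021 in wild type. Zap70, a kinase of T cell receptor signalling, had a log2 ratio of -0.17 and Dntt, which adds bases at receptor gene joints, -0.77. Pan-leukocyte genes had 4 of 9 measured at least 2-fold lower, where 1.78% of all genes were. Ptprc, CD45, had 308.0 in the double knockout and 2874 in wild type. Coro1a, an actin regulator of leukocytes, had 1375 in the double knockout and 7136 in wild type. Laptm5, a lysosomal protein, had a log2 ratio of -0.27 and the tetraspanin Cd53 -0.17. The summed signal of the thymocyte list was 7178 in the double knockout and 35629 in wild type. Mouse T cells themselves make little or no class II.

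Alveolar type II cells, which can carry class II molecules after birth, had no marker at least 2-fold lower on either design. Of 10 genes, 9 passed on MOE430A with a median log2 ratio of 0.45 and a summed signal of 237083 in the double knockout and 170531 in wild type. Of these sums Sftpc alone gave 113337 and 78525. The list median was 0.30 with quantile normalization and 0.29 with a loess curve removed, both other scalings. Sftpc had a log2 ratio of 0.53, with 0.18 and 0.28 under those scalings, and 1.98 by its other probe set. Abca3, the lipid transporter of lamellar bodies, had a log2 ratio of 0.56, the surfactant protein Sftpd 0.22 and Etv5 -0.01. Among costimulatory genes, 3 of 7 were measured on MOE430A, with Cd40 at 0.04, the ligand Icosl at 0.02 and Cd83, a surface protein of dendritic cells and thymic epithelium named after its values were seen, at -0.91.

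**Figure D4:**
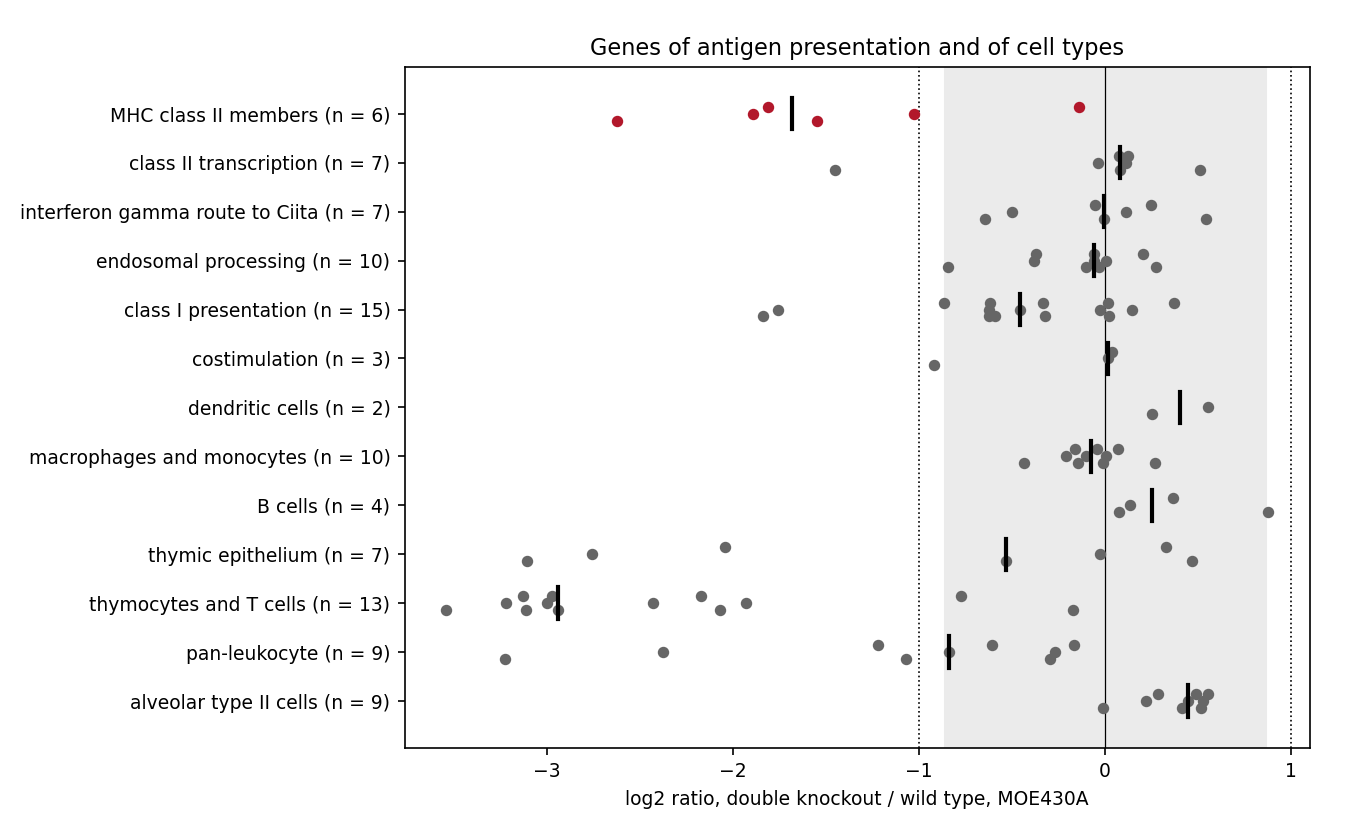
Log2 ratio of double knockout over wild type on MOE430A for each measured gene (points, offset for legibility) of the class II members (red) and of lists of antigen presentation and of cell types (grey), with list medians (bars), the middle 95% of all genes (shading, -0.86 to 0.86) and the 2-fold lines (dotted). The class II median of -1.68 lies between those of the thymocyte list, -2.94, and the pan-leukocyte list, -0.84, while the macrophage median lies at -0.07 and the B cell median at 0.25.

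On MOE430B the lists held 0 to 5 measured genes each. Of 5 thymocyte genes, each by its brightest probe set, 1 was at least 2-fold lower, where 6.24% of all genes were. It was Bcl11b, a transcription factor of T cell commitment, with 1806 in the double knockout and 7372 in wild type. Of 3 pan-leukocyte genes, Itgal, an integrin chain, was at -2.03, Rac2 at -0.45, and Laptm5 at 2.07, where its wild type signal lay under the floor. The thymocyte genes Themis and Cd8a were at -0.94 and -0.30, but at -2.55 and -2.70 by their lowest passing probe sets. Satb1 was at -0.71, and at -2.14 by its other probe set, and Zap70, with 1 passing probe set, at -0.63. Without probe sets of shared sequence the thymocyte median was -1.48 over 4 genes, against -0.71 with them. Napsa, an aspartic protease of type II cells, was at 1.97, where it passed through its double knockout signal alone, and at 0.29 on MOE430A. The chemokine Cxcl15 was at 0.73. The B cell factors Pax5 and Ebf1 were at 0.51 and 0.43, the macrophage receptors Fcgr1 and Ccr2 at 0.17 and -0.07, and the dendritic cell factor Zbtb46 at 0.22. The class I activator Nlrc5 was at -0.25, the chaperones Canx and Pdia3 at -0.19 and 0.23, and Crebbp, Creb1 and Kat2b, which act in class II transcription, at -0.28, -0.21 and -0.08. No gene of the class II transcription, endosomal, class I, costimulation, dendritic, macrophage, B cell or thymic epithelium lists was past 2-fold on MOE430B.

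As a description over 2 arrays, the genes nearest to Cd74, the brightest member on MOE430A, in their pair of log2 signals were Papss1, Gaa, Ccn2, Lum and Surf4. Their distances were 0.23 to 0.42 log2 units. Papss1, which makes the sulfate donor of the cell, had 1964 in the double knockout and 5325 in wild type, and Lum, a proteoglycan of collagen fibrils, had 2728 in the double knockout and 5568 in wild type. None of them is a gene of antigen presentation in the lists used here.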

How the data were processed

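RNA of E18.5 mouse lung was measured on 4 Affymetrix arrays, grouped by title. The authors deposited linear intensities, 1 per probe set. The submitters' processing notes name MAS5, with version, settings and detection calls not given in the sources used here. The 2% trimmed mean was 1500 on each array, so arrays had been scaled singly and ratios were formed only within a design. Such scaling assumes equal total signal, and dim MAS5 signals are noisy. Each design lost 64 controls, and the factor, filter and floor given above were applied with python 3.11.15. Platform annotation gave 1 gene for 20380 and 14661 probe sets, several for 691 and 245, and none for 1555 and 7605, on MOE430A and MOE430B. A gene was represented, per design, by the probe set that passed and was brightest in mean log2 signal. The members and lists were chosen with earlier results of these data known. The members are named with all their probe sets, and lists by their 2 highest and 2 lowest log2 ratios among genes whose mean signal reached the filter value. Genes most like a member are the 5 nearest to the brightest one in log2 signal. Other genes named are said to be chosen after their values were seen, except targeted genes, Xist and genes that stand as partners or cell markers beside a member, likewise chosen with values known. Genes were counted at 2-fold. The steps were tested on simulated arrays. The 10 alternatives were other scalings, floors, filters and probe set choices. RefSeq coordinates belong to printed promoters only.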

Additional observations from a re-analysis of the deposited data

How the results depend on the processing

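The 5 lowered members on MOE430A kept their direction and stayed at least 2-fold lower in all 46 recomputed values, from -2.64 to -1.002. The value of -1.002 was that of H2-Eb1 without a filter and lay barely past the 2-fold line. H2-Aa on MOE430B likewise stayed at least 2-fold lower in 9 of 9, from -3.74 to -1.95. The setting that cost most was dropping the probe sets with shared sequence, since 2 members were then left on MOE430A, with 1 at least 2-fold lower and a median of -0.58, and none on MOE430B. With the floor at the median of the design, which shortens ratios of dim genes by construction, the member median was -1.37 on MOE430A and -0.87 on MOE430B, H2-Ab1 was at -1.23 and H2-Ea at -1.51, H2-DMb2 on MOE430A was no longer past 2-fold at -0.65, and the genes at least 2-fold lower and higher were 65 and 45 on MOE430A and 160 and 165 on MOE430B. Without a filter, 8 members were measured on MOE430A, with a median of -1.26, and 4 on MOE430B, where the median turned to 0.037 because dim members at the floor entered it, and 212 genes were at least 2-fold higher on MOE430A. With the filter at the 75th percentile, 54 genes were lower and 32 higher on MOE430A, and 107 lower and 134 higher on MOE430B. All other counts and medians of members and genes stayed within 1.5 times or 1 SD. Of 982 values of single genes and lists, 932 moved by no more than 1 SD, 50 by more, and 0 values past 2-fold changed sign. No paired analysis was possible because each group held 1 array and the labels give no replicate numbers. Signal limits what can be said of Ciita, H2-Oa and H2-Ob, which lay below the filter, and of most dendritic cell markers.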

Other observations

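Neighbours of the class II genes in the MHC were read in the order of the RefSeq table. Between H2-Oa and H2-Ea, 6 genes that are not members passed on MOE430A, and 3 were at least 2-fold lower in the double knockout, where 1.78% of all genes were. The median log2 ratio over the 6 was -1.06. The 3 were H2-DMb2 and the proteasome genes Psmb9 (-1.84) and Psmb8 (-1.76), which also belong to the lists above. All 3 passed through wild type alone, so that their lower signals follow in part from the filter. Brd2, a bromodomain protein next to H2-DMa, had 4146 in the double knockout and 3866 in wild type, and Tap1, which lies between Psmb9 and Psmb8, had a log2 ratio of 0.03. Among the 10 nearest measured genes before H2-Oa, 1 was at least 2-fold lower, B3galt4 (-1.09), and among the 10 after H2-Ea none was. The medians of these flanks were 0.05 before and -0.00071 after.

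On MOE430B the 10 measured genes before H2-Oa had 2 at least 2-fold lower, Adamts10 (-1.95) and Wdr46 (-1.12), where 6.24% of all genes were, and a median of -0.32, and the 10 after H2-Ea had none and a median of 0.012. Between the same ends, H2-DMb2 had a log2 ratio of -2.35 and H2-Eb2 one of -0.02. These genes were looked up after the member values were known, and no test was run on their order.

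Of genes whose RefSeq promoter holds the X core and Y box pair, 10 passed on MOE430A, and 3 were at least 2-fold lower, H2-Aa, H2-Eb1 and Cwc15 (-1.62), a splicing factor. Of the 8 outside the class II genes, 1 was at least 2-fold lower, where 1.63% of the 6204 genes outside class II without the pair were. Their median log2 ratio was -0.14, against 0.0066 over the genes without it. On MOE430B, 0 of 6 such genes were at least 2-fold lower, where 6.23% of genes without the pair were. There the medians lay the other way, at 0.37 with the pair and -0.04 without it.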
